A study of Homo sapiens with 6 samples.

Results

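The genes described here are 10 genes of the myeloid cytokine receptors and the JAK-STAT pathway, out of 29810 genes in the deposited expression table. They are the receptor chains CSF2RB, CSF3R, IL6R and IL6ST, the kinases JAK1 and JAK2, the transcription factors STAT3, STAT5A and STAT5B, and the feedback inhibitor SOCS2. Each was found by matching its gene symbol to an Ensembl identifier of the table, and all 10 were listed. Their levels were measured by mRNA-seq in Kasumi-1 cells, a human AML cell line with the t(8;21) translocation and its RUNX1-RUNX1T1 fusion. One group of 3 libraries came from cells incubated with 0.25 μM I3, an HDAC inhibitor made by the study's laboratory, and the other 3 came from control cells, which received the same concentration of the solvent DMSO according to the methods. Both groups were incubated for 48 h by the labels and the methods, although a legend of the study gives a longer time. Kasumi-1 is a single cell line, and nothing in the labels says whether the 3 libraries of a group came from separate cultures, so the p-values measure the spread between these libraries, which may be technical.

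Myeloid cytokines such as G-CSF, GM-CSF, IL-3 and IL-6 bind receptors that have no enzyme activity of their own. Bound receptors bring JAK kinases together, the kinases phosphorylate the receptor tails, and STAT proteins dock there, are phosphorylated and move to the nucleus to switch on genes. SOCS and CIS proteins are products of such genes and limit the signal, and the pathway is known for its part in granulocyte production and in leukemia.

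The libraries had 17500320 to 18193371 reads, rebuilt from the FPKM values (fragments per kilobase of gene, scaled to the depth of the library) and the exon length of each gene. For a gene 1 kb long, 1 read stood for 0.055 to 0.0571 FPKM. The labelled cell line was checked against 10 markers, all of which were detected in every library, with MPO at 7740 to 8612 FPKM, KIT at 198 to 225 FPKM and RUNX1T1 at 14.1 to 17 FPKM. Of 13 markers of other cell types, 11 were listed and 3 had a mean of at least 0.5 FPKM. These were EPCAM at 28.2 to 31.6 FPKM, PECAM1 and CD79A. The summed level of the 11 listed markers was 32.4 to 34.6 FPKM in control and 32.6 to 35.4 FPKM in I3 libraries.

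None of the 10 genes was called as changed between I3 and control libraries in limma. The test compared log2(FPKM + 0.5) between the groups over 12960 genes with a mean of at least 0.5 FPKM with Benjamini-Hochberg adjustment. A gene was called where its adjusted p was under 0.05 and its log2 fold change exceeded 0.58 in either direction, the thresholds of the study. At these thresholds 0 of the 10 genes were called, beside 0.0% of all tested genes. The study reported lower and higher genes at the same thresholds with DESeq, a method for counts, so the counts here hold for limma on FPKM. With voom, which models counts, on the rebuilt reads, 0 of 13606 tested genes were called at the adjusted p. At an unadjusted p under 0.05 the count was also 0 of 10, beside 4.93% of all tested genes, and voom on the rebuilt reads gave 0 of 10 as well. The largest log2 fold change was 0.20 for IL6ST and the lowest was -0.12 for CSF2RB, and the median of the 10 was 0.001, beside 0.011 over all tested genes. The 95% interval of the fold change lay within 0.58 in both directions for 10 of 10 genes, as it did for 81.6% of all tested genes. In this fit of all libraries, a difference as large as the study's fold threshold was therefore outside the interval for each gene. The intervals are on the log2(FPKM + 0.5) scale and do not exclude smaller differences. Intervals with a library left out are not given, and the log2 fold change of IL6ST then reached 0.30.

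**Figure D1:**
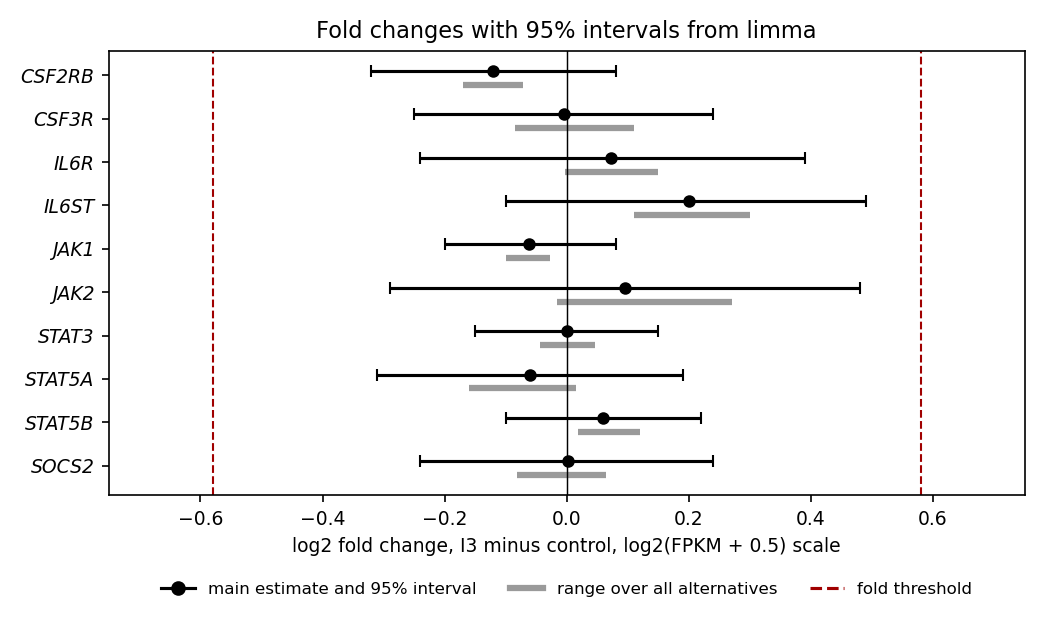
The log2 fold change of each gene (I3 minus control, log2(FPKM + 0.5) scale) is shown as a point with its 95% interval from limma, the grey bar is the range over all alternative settings, and the dashed lines are the fold threshold of 0.58. Each interval spans 0 and stays between the dashed lines, with IL6ST farthest to the right at 0.20.

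CSF3R encodes the G-CSF receptor, which drives the growth and maturation of neutrophils. It was the most abundant of the 10 genes and stood at percentile 97.2 of the tested genes in control cells. Its level was 103, 79.3 and 84.8 FPKM in control 1, 2 and 3, and 94.6, 81.9 and 88.8 FPKM in I3 1, 2 and 3. The groups overlapped, and the lowest and the highest library were both controls. The means were 89.2 ± 12.7 FPKM (SD, n = 3) and 88.5 ± 6.38 FPKM (SD, n = 3), a log2 fold change of -0.005 with a 95% interval of -0.25 to 0.24 (limma, adjusted p = 0.999). CSF3R rested on 11896 to 15408 reads a library, and its spread between libraries of a group was 12.8 times that of counting alone. The gene lies on chromosome 1 of GRCh38 from 36466043 to 36483278, on the minus strand.

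RefSeq gives CSF3R more than one transcript start, and the 300 bases around the start inside the GENCODE gene (chr1:36482864-36483163, GRCh38.p14, minus strand, 250 bases before to 50 after the start) are shown because CSF3R had the highest level of the 10 genes. The capitals mark a TTGCAAT, a sequence of the type that C/EBP factors bind, with its first base at position -48 from the start.

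CSF3R: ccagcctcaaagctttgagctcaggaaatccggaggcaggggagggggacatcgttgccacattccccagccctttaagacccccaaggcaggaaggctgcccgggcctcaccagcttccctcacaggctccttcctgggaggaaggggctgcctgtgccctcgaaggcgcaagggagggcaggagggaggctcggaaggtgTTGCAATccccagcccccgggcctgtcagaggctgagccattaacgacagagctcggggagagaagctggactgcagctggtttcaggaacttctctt

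On either strand TTGCAAT occurred in 1.95% of 35116 such windows in the RefSeq table, and in 1 of the 16 windows listed for the 10 genes. The motif was chosen with this window in view. The STAT motif TTCNNNGAA, which reads the same on both strands, occurred in 7.66% of all windows and in 0 of the 16. The table held windows for 8 of the 10 genes, without CSF2RB and SOCS2. These matches describe letters in the windows and not sites that were shown to be bound.

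CSF2RB encodes the beta chain shared by the receptors for IL-3, GM-CSF and IL-5. It was listed at 2.99, 3.02 and 2.89 FPKM in control 1, 2 and 3 and at 2.88, 2.72 and 2.46 FPKM in I3 1, 2 and 3. All I3 values lay below all control values, with I3 1 and control 3 almost equal at 257 and 253 reads. It was the 1 gene of 10 whose groups did not overlap, beside 9.7% of all tested genes (5.06% with I3 above control and 4.64% with I3 below), so the count is that of the background. The means were 2.97 ± 0.0682 FPKM (SD, n = 3) in control and 2.69 ± 0.213 FPKM (SD, n = 3) in I3 libraries. The log2 fold change was -0.12 with a 95% interval of -0.32 to 0.08 (limma, unadjusted p = 0.193, adjusted p = 0.998), and the two-sided exact permutation p was 0.1, the smallest that 3 against 3 libraries allow. Its spread within groups was 0.926 times that of counting alone, so the 224 to 269 reads a library set its precision. CSF2RB lies on chromosome 22 from 36913628 to 36940449.

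The alpha chains that pair with CSF2RB differed in level. IL3RA, the IL-3 binding chain, had 3.43 ± 0.685 FPKM (SD, n = 3) in control and 3.14 ± 0.502 FPKM (SD, n = 3) in I3 libraries. CSF2RA, the GM-CSF binding chain, had 0.987 ± 0.329 and 0.945 ± 0.188 FPKM (SD, n = 3 each), whereas IL5RA was listed at 0 in all libraries but I3 3, where it had 0.00833 FPKM. The ratio of CSF2RB to CSF2RA within a library ranged from 2.14 in I3 3 to 4.48 in control 2, and the groups overlapped (difference of log2 ratios -0.12, exact permutation p = 0.9). The sign of this difference turned to 0.14 without control 2 and to 0.093 without I3 3.

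IL6R binds IL-6, and IL6ST encodes gp130, the chain that carries the signal of IL-6 and of related cytokines. IL6R was the least abundant of the 10 genes, at 1.45, 1.24 and 1.07 FPKM in control 1, 2 and 3 and at 1.18, 1.45 and 1.38 FPKM in I3 1, 2 and 3. The groups overlapped almost entirely, and the log2 fold change was 0.073 with a 95% interval of -0.24 to 0.39 (limma, adjusted p = 0.998). With 121 to 167 reads a library, IL6R also had the fewest reads of the 10 genes. IL6R lies on chromosome 1 from 154405193 to 154469450.

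IL6ST had the largest fold change of the 10 genes and the smallest unadjusted p. Its level was 4.58, 3.49 and 3.68 FPKM in control 1, 2 and 3, and 4.55, 3.98 and 5.18 FPKM in I3 1, 2 and 3. Control 1 lay within the I3 range and the other controls below it. The means were 3.92 ± 0.583 FPKM (SD, n = 3) and 4.57 ± 0.601 FPKM (SD, n = 3), a log2 fold change of 0.20 with a 95% interval of -0.10 to 0.49 (limma, unadjusted p = 0.155, adjusted p = 0.998, exact permutation p = 0.3). Without control 1 the log2 fold change was 0.30 with an unadjusted p = 0.0352 in limma, but in that fit 1417 of 12913 tested genes (11.0%) had an unadjusted p under 0.05. Over all alternatives the estimate ran from 0.11 to 0.30. IL6ST lies on chromosome 5 from 55935095 to 55994993, and 8.6% of its exon length overlaps an antisense gene, AC008914.1. The kit marks the strand, but the sources used here do not say whether reads were assigned by strand, and reads of both genes may then share a value.

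Within a library IL6ST was 2.74 to 3.85 times as abundant as IL6R, with a lowest value in I3 2 and a highest in I3 1. The difference of the log2 ratios was 0.12 (exact permutation p = 0.6), and the groups overlapped. Other chains that pair with gp130 differed widely in level. IL27RA, the IL-27 binding chain, had 24.2 ± 1.52 FPKM (SD, n = 3) in control and 23.5 ± 1.29 FPKM (SD, n = 3) in I3 libraries, while IL11RA was at 1.02 to 1.57 FPKM and LIFR and OSMR were below 0.05 FPKM in each library.

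JAK1 serves the gp130 receptors among others, and JAK2 serves CSF2RB and the G-CSF receptor. JAK1 had 20.1, 19.3 and 18.1 FPKM in control 1, 2 and 3 and 17.9, 18.1 and 18.9 FPKM in I3 1, 2 and 3. These were the values with the smallest spread within groups of all 10 genes, an SD of 0.0591 on the log2 scale. The log2 fold change was -0.062 with a 95% interval of -0.20 to 0.08 (limma, adjusted p = 0.998). JAK1 lies on chromosome 1 from 64833229 to 64966504.

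JAK2 had 3.83, 2.40 and 2.59 FPKM in control 1, 2 and 3 and 3.37, 2.71 and 3.31 FPKM in I3 1, 2 and 3. Control 1 was the highest of the 6 libraries and control 2 the lowest, and the SD within groups of 0.242 on the log2 scale was the largest of the 10 genes. The log2 fold change was 0.095 with a 95% interval of -0.29 to 0.48 (limma, adjusted p = 0.998). JAK2 lies on chromosome 9 from 4984390 to 5128183. JAK1 was 5.25 to 8.02 times as abundant as JAK2 in control libraries and 5.32 to 6.69 times in I3 libraries (difference of log2 ratios -0.18, exact permutation p = 0.5). Of the other JAK genes, TYK2 stood close to JAK1 at 17.8 ± 0.735 FPKM (SD, n = 3) and JAK3 was at 5.85 ± 0.465 FPKM (SD, n = 3) in control cells.

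STAT5A and STAT5B carry the signal of the IL-3, GM-CSF and G-CSF receptors, and STAT3 that of gp130 and the G-CSF receptor. STAT5A had 38.9, 48.8 and 46.3 FPKM in control 1, 2 and 3 and 38.4, 47.3 and 42.6 FPKM in I3 1, 2 and 3. Replicate 1 was the lowest library of both groups. The log2 fold change was -0.06 with a 95% interval of -0.31 to 0.19 (limma, adjusted p = 0.998).

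STAT5B had 23.7, 25.2 and 24.5 FPKM in control 1, 2 and 3 and 23.5, 27.1 and 26.2 FPKM in I3 1, 2 and 3. STAT3 had 22.8, 24.2 and 25.9 FPKM in control 1, 2 and 3 and 23.3, 24.6 and 25 FPKM in I3 1, 2 and 3. The groups of both genes overlapped, and the ranges of STAT5B and STAT3 overlapped with each other. The log2 fold changes were 0.06 (95% interval -0.10 to 0.22, limma adjusted p = 0.998) for STAT5B and 0.0004 (95% interval -0.15 to 0.15, limma adjusted p = 1.0) for STAT3, the narrowest intervals after JAK1.

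All 3 STAT genes lie side by side on chromosome 17, STAT5B from 42199168 to 42276707 and STAT3 from 42313324 to 42388568 on the minus strand, with STAT5A between them from 42287547 to 42311943 on the plus strand. The coding sequences of STAT5A (2382 bases) and STAT5B (2361 bases) were identical at 88.9% of 2345 aligned bases, and they shared a stretch of 429 bases without a difference, bases 564 to 992 counted from the first base of the start codon. The end of that stretch is shown because reads wholly inside the stretch cannot be assigned to one gene by their own bases. Bases 953 to 1052 of the coding sequence of each transcript (GENCODE release 29) are printed, with the single base that differs in capitals.

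STAT5A: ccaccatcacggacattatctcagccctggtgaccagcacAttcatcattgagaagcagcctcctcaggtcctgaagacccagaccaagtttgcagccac

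STAT5B: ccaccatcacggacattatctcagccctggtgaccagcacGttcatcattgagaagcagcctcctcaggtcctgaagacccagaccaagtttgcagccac

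Of all 50-base words in the transcripts of STAT5A, 8.61% also occurred in STAT5B transcripts, and 7.81% of those of STAT5B occurred in STAT5A. The sources used here do not say how such reads were counted, so the division between both genes is uncertain. The shares count words and not reads, and do not bound that uncertainty. For the other 8 genes the share of words found on the same strand of another gene was 2.81% in IL6ST, 1.2% in STAT3 and lower in the rest. Within a library STAT5B was 0.517 to 0.614 times as abundant as STAT5A. The ratio was 0.610, 0.517 and 0.530 in control 1, 2 and 3 and 0.612, 0.574 and 0.614 in I3 1, 2 and 3. Control 1 reached the I3 values and the groups overlapped (difference of log2 ratios 0.12, exact permutation p = 0.2). With adjustment over the 4 ratios the exact p was 0.8 for each, except 0.9 for CSF2RB to CSF2RA.

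**Figure D2:**
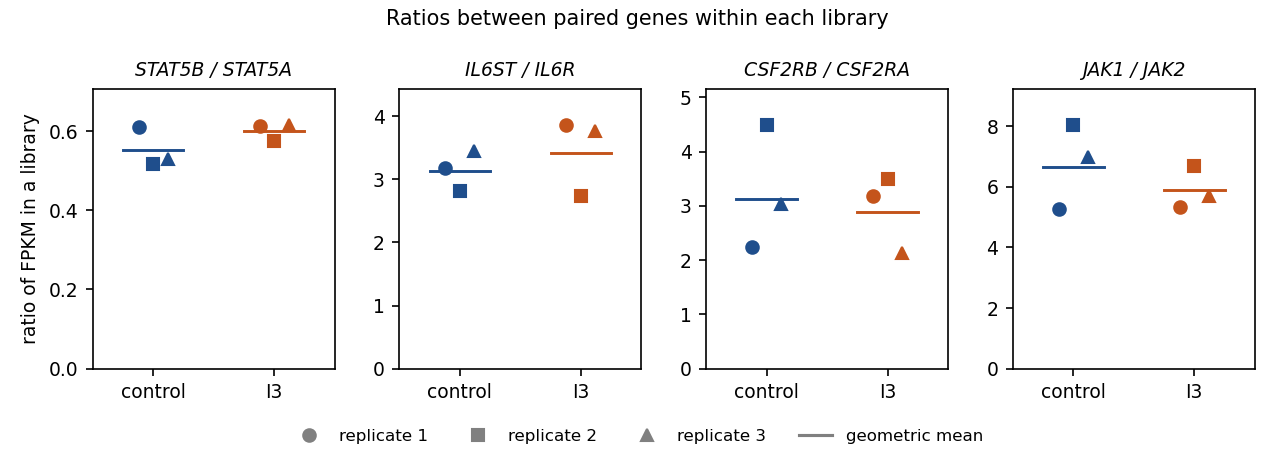
The ratio of FPKM values between paired genes is plotted for each library of control and I3 cells (symbols give the replicate, lines the geometric mean of a group, and the vertical axes start at 0). The groups overlap in each panel, and the range that is widest for its size is that of CSF2RB to CSF2RA, from 2.14 to 4.48.

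SOCS2 encodes an inhibitor of cytokine signaling that STAT5 is known to induce. It had 4.70, 4.0 and 4.19 FPKM in control 1, 2 and 3 and 4.89, 4.15 and 3.90 FPKM in I3 1, 2 and 3. I3 held both the highest and the lowest library. The means were 4.30 ± 0.362 FPKM (SD, n = 3) and 4.32 ± 0.516 FPKM (SD, n = 3), a log2 fold change of 0.002 with a 95% interval of -0.24 to 0.24 (limma, adjusted p = 1.0). SOCS2 lies on chromosome 12 from 93569814 to 93583487, and 4.1% of its exon length overlaps SOCS2-AS1 on the opposite strand.

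FPKM is a level per length, so FPKM values can also be set side by side between genes. The length that gave whole reads covers all exons of a gene's transcripts, 8429 bases for CSF3R. The ratios below are therefore of FPKM and may differ from ratios of transcript numbers. CSF3R was 2.03 times as abundant as STAT5A on average over the 6 libraries, and STAT5A was 1.74 times as abundant as STAT5B. STAT3 was 1.30 times as abundant as JAK1, and JAK1 was 4.36 times as abundant as SOCS2. The libraries' ranges did not overlap for these steps, nor for CSF2RB over IL6R (2.19 times). SOCS2 and IL6ST (1.02 times), JAK2 and CSF2RB (1.06 times) and STAT5B and STAT3 (1.03 times) were neighbours that did not differ beyond their spread. IL6ST exceeded JAK2 in 6 of 6 libraries, by 1.4 times on average, although the ranges of both genes overlapped. In these bulk samples a lower level from fewer expressing cells and one from less RNA per cell cannot be told apart.

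**Figure D3:**
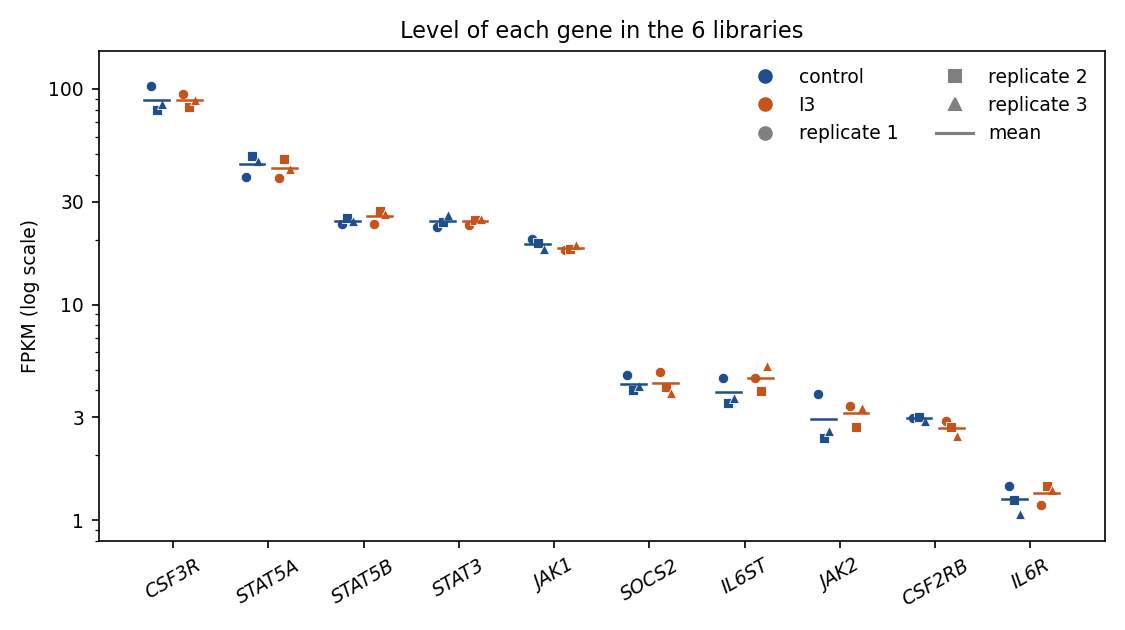
Levels of the 10 genes in the 6 libraries, in FPKM on a log axis, ordered by mean (symbols give the replicate, lines the group mean). CSF3R lies near 90 FPKM, the STAT genes and JAK1 between 17.9 and 48.8 FPKM, and the other genes at 5.18 FPKM or lower, and the groups overlap for each gene but CSF2RB.

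The libraries differed in how gene levels varied with the GC content of the transcripts. Across 12939 tested genes, the rank correlation of GC content with a library's deviation from the gene mean was negative in control 1 (-0.313), I3 1 (-0.232) and I3 3 (-0.446) and positive in control 2 (0.446), control 3 (0.337) and I3 2 (0.262). Genes are not independent replicates, and no p is given. The genes are set out by these 2 sets of 3 libraries as a description, since the sets were formed from the same values. JAK2 (GC content 40.9%) was higher by 0.38 and IL6ST (40.2%) by 0.32 on the log2 scale in the first 3 libraries than in the other 3, without overlap. STAT5A (59.3%) was lower in them, with a difference of -0.25, again without overlap. CSF3R, with a GC content of 60.6%, had a difference of 0.22, also without overlap but opposite in sign to that of STAT5A. The median difference was 0.13 over 4278 tested genes with a GC content under 45% and -0.1 over 3985 tested genes over 55%. The share of all tested genes without overlap between these 2 sets was not computed, so the separation of these genes has no background beside it.

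After a lowess correction of each library for GC content, the SD within groups on the log2 scale was 0.0941 in place of 0.178 for IL6ST, 0.162 in place of 0.242 for JAK2 and 0.117 in place of 0.159 for STAT5A, but 0.211 in place of 0.159 for CSF3R. It became smaller for 6 of the 10 genes. The log2 fold change of IL6ST was then 0.14 (95% interval -0.05 to 0.33, limma adjusted p = 0.912) and that of CSF2RB was -0.088 (95% interval -0.27 to 0.10, limma adjusted p = 0.968). That of JAK2 was 0.041 in place of 0.095, and that of STAT5A was -0.027 in place of -0.06. The difference of log2 ratios was 0.053 in place of 0.12 for IL6ST to IL6R and -0.11 in place of -0.18 for JAK1 to JAK2. I3 held more of the libraries with a negative correlation, and the part of GC content in the uncorrected fold changes was not tested further.

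**Figure D4:**
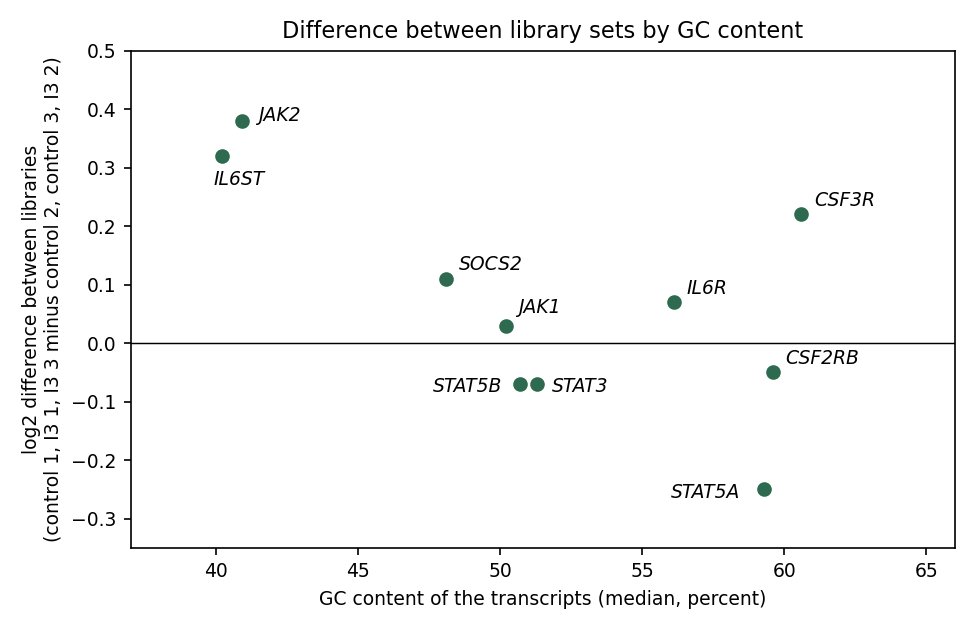
The mean log2 difference between the libraries control 1, I3 1 and I3 3 and the libraries control 2, control 3 and I3 2 is plotted for each gene against the median GC content of its transcripts in percent. JAK2 and IL6ST lie highest at the left, STAT5A lies lowest at -0.25, and CSF3R stands apart at 0.22.

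The wider pathway was described with lists of further genes. Of 31 other cytokine receptor chains 15 passed the minimum of 0.5 FPKM, of 6 other JAK and STAT genes 5, of 24 inhibitors and adaptors 23 and of 14 ligands 2. Over these lists limma called 0 genes at the adjusted p. At an unadjusted p under 0.05, 0 genes were higher, beside 2.08% of all tested genes, and 1 was lower, beside 2.85%. The gene was PTPN6, which encodes SHP-1, a phosphatase that restrains cytokine receptors. It had 12.5 ± 0.613 FPKM (SD, n = 3) in control and 10.9 ± 0.415 FPKM (SD, n = 3) in I3 libraries, without overlap, and a log2 fold change of -0.19 (limma, unadjusted p = 0.0207, adjusted p = 0.928). Its unadjusted p was 0.0762 without control 2, 0.0552 without I3 1 and 0.0687 without I3 3, so leaving out any of these libraries took PTPN6 over 0.05. In single alternatives other genes of these lists came under it, IFNGR2 and PIAS3 with lower values in I3 libraries and PRLR, SOCS4 and SOCS5 with higher values. SOCS4 and SOCS5 did so without control 1, with log2 fold changes of 0.40 and 0.18, and PRLR with voom.

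Among the receptor chains the most abundant were IL2RG, the common gamma chain, at 53.5 ± 2.23 FPKM (SD, n = 3) in control and 51.2 ± 4.41 FPKM (SD, n = 3) in I3 libraries, IL27RA, and IFNGR1, at 9.13 to 11.8 FPKM over all libraries. IFNGR2, a chain of the interferon gamma receptor, had the smallest p of this list, with 8.48 ± 1.02 FPKM (SD, n = 3) in control and 6.70 ± 1.64 FPKM (SD, n = 3) in I3 libraries (limma, unadjusted p = 0.0886, adjusted p = 0.998). I3 3 was lowest at 4.92 FPKM and the groups overlapped. IFNAR2, a chain of the receptor for type I interferons, had 2.63, 2.69 and 2.01 FPKM in control 1, 2 and 3 and 2.82, 2.70 and 2.80 FPKM in I3 1, 2 and 3. All I3 values were higher, as they also were for CBL and PIAS4, which restrain signaling by receptors and STATs, and all were lower for PTPN6 and CISH. Beside these genes, the background of groups without overlap was 5.06% of all tested genes with I3 higher and 4.64% with I3 lower.

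STAT6 was at 15.3 FPKM in control cells, below STAT3, and STAT2 was at 7.34 FPKM. GRB2 and PTPN11, which link receptors to RAS signaling, were the most abundant adaptors at 83.3 ± 3.26 and 46.6 ± 2.22 FPKM (SD, n = 3 each) in control cells, followed by SH2B3, an inhibitor of JAK2 signaling, at 22.5 ± 0.963 FPKM (SD, n = 3). CISH, like SOCS2 a feedback inhibitor induced by STAT5, was at 3.26 ± 0.210 FPKM (SD, n = 3) in control and 2.85 ± 0.164 FPKM (SD, n = 3) in I3 libraries. Its groups did not overlap, but its log2 fold change of -0.17 did not pass (limma, unadjusted p = 0.0874, adjusted p = 0.998).

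Most of the ligands were below the minimum of 0.5 FPKM. CSF2, IL5 and LIF were listed at 0 in all 6 libraries. CSF3, which encodes G-CSF, was at 0.102 FPKM or lower. CLCF1 and CNTF, ligands of receptors that contain gp130, were the only ligands above the minimum. CLCF1 had 1.12 ± 0.37 FPKM in control and 1.39 ± 0.617 FPKM in I3 libraries (SD, n = 3 each). CNTF had 0.808 ± 0.0367 and 0.935 ± 0.333 FPKM (SD, n = 3 each). The groups of both genes overlapped (limma, unadjusted p = 0.477 and 0.6, adjusted p = 0.998 for both). Without I3 2 the log2 fold changes of both genes were below 0. OSM was at 0.452 FPKM or lower.

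Of 19 genes known as targets of STAT3 or STAT5, 16 passed the minimum. In limma 0 of the 16 were called at the adjusted p, and 0 had an unadjusted p under 0.05, beside 0.0% and 4.93% of all tested genes. The log2 fold changes of the 16 were below 0 for 13 genes and above 0 for 3, beside 5934 below and 7026 above over all tested genes. Their median was -0.106, beside 0.011 over all tested genes. Genes are not independent replicates, and the direction of the list was not tested. The median was below 0 in every alternative, from -0.143 without control 3 to -0.064 without I3 3, and it was -0.067 after GC correction. MYC was the most abundant at 350 ± 24.0 FPKM (SD, n = 3) in control and 345 ± 21.0 FPKM (SD, n = 3) in I3 libraries, followed by MCL1, an inhibitor of apoptosis, and CCND2, a G1 cyclin. The smallest p values belonged to ID1, an inhibitor of differentiation factors (19.2 ± 1.87 and 16 ± 2.13 FPKM, SD, n = 3 each, limma unadjusted p = 0.0515, adjusted p = 0.998) and BCL2L1, which encodes BCL-XL (6.75 ± 0.549 and 5.98 ± 0.230 FPKM, SD, n = 3 each, limma unadjusted p = 0.0776, adjusted p = 0.998). Their groups overlapped. In some alternatives ID1, BCL2L1 or BCL3 had an unadjusted p under 0.05, each with a lower value in I3 libraries. This list holds CISH, SOCS1, SOCS3 and OSM, which also stand in the lists above.

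**Figure D5:**
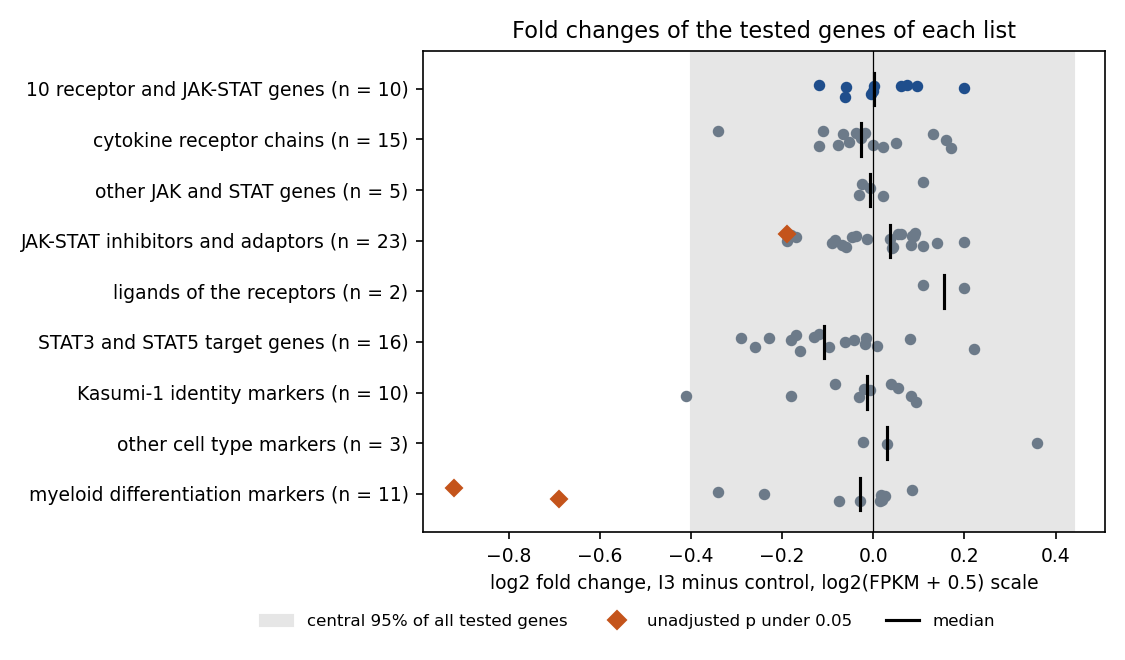
Log2 fold changes (I3 minus control, log2(FPKM + 0.5) scale) of the tested genes of each list, with the list median as a black line, the central 95% of all tested genes in grey and genes with an unadjusted p under 0.05 as diamonds. The 10 receptor and JAK-STAT genes lie between -0.12 and 0.20, inside the grey band, and PTPN6 is the only diamond among the pathway lists, with 2 more among the myeloid differentiation markers.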

How the data were processed

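Total RNA was used for stranded libraries of polyadenylated RNA. The authors deposited 1 FPKM value for each gene and library, without read counts. Trimmomatic, HISAT2, Cufflinks, HTSeq and the build hg38 are named in the submitters' processing notes, without versions or roles. The sources used here do not name the annotation. The deposited table's name spells the compound differently from the labels, which give I3. All 6 columns were used.

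Of 29810 genes, 29703 were found in GENCODE release 29 (GRCh38), which gave coordinates, exon lengths and GC content. Reads were rebuilt from FPKM and exon length, and were whole in all libraries for 95.8% of 26519 genes at a tolerance of 0.1 read. Libraries of a group were not copies (chi-square over degrees of freedom of 4.47 or more). The main test was limma 3.58.1 (R 4.3.3, eBayes with trend, two-sided) on log2(FPKM + 0.5), which understates changes of low genes. The study's DESeq was not used because the unit is FPKM. Single values and ratios were compared by exact permutation tests (scipy 1.17.1), with plots by matplotlib 3.10.9. The limma fit was also run on simulated data with independent normal noise for each gene. That simulation held no GC differences between libraries, so it does not show how the fit behaves on these libraries. Alternatives are given in the closing section. The 10 genes, the other lists and the tests were chosen with earlier results of these data known. The named genes of each list are the 3 with the highest mean FPKM and the 2 with the smallest unadjusted p, besides all 10 genes and the 3 genes most like IL6ST. CSF2RA, IL3RA, IL5RA, IL11RA, LIFR, OSMR, CSF3, the ligands at 0, RUNX1T1, CBL, PIAS3, PIAS4, PRLR, BCL3, SOCS4, SOCS5 and ADGRE2 were named after their values were seen. IL6, IL3 and IL27 were not analysed here, and 1 gene that the rule names is not reported here. Promoter windows are from RefSeq (GRCh38.p14).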

Additional observations from a re-analysis of the deposited data

How the results depend on the processing

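Alternatives were pseudocounts of 0.1 and 1, no minimum FPKM or a minimum of 1, quantile normalization, TPM, scaling by median-of-ratios, the replicate number as a block, a fit without trend, a lowess correction for GC content (span 0.3), voom on rebuilt reads (mean of 10 or more), and each library left out. The GC correction together with the block was added after the data had been seen. With all libraries kept, 0 of the 10 genes were called or had an unadjusted p under 0.05. CSF2RB, IL6ST, JAK1 and STAT5B kept their sign in every alternative. Fold changes near 0 turned in sign for CSF3R (0.0051 with TPM, 0.039 with quantile normalization, 0.037 with GC correction, with and without the block), STAT3 (-0.013 with median-of-ratios scaling, -0.0068 with GC correction, with and without the block) and SOCS2 (-0.0094 with median-of-ratios scaling, -0.011 with quantile normalization, -0.016 with GC correction, with and without the block). With single libraries left out, the log2 fold change ran from -0.085 to 0.11 for CSF3R, -0.0028 to 0.15 for IL6R, -0.016 to 0.27 for JAK2, -0.044 to 0.046 for STAT3, -0.16 to 0.015 for STAT5A, -0.082 to 0.065 for SOCS2, 0.11 to 0.30 for IL6ST, -0.17 to -0.071 for CSF2RB, -0.10 to -0.028 for JAK1 and 0.018 to 0.12 for STAT5B. The difference of the log2 ratio of CSF2RB to CSF2RA ran from -0.36 to 0.14, that of STAT5B to STAT5A from 0.076 to 0.20, that of IL6ST to IL6R from 0.034 to 0.28 and that of JAK1 to JAK2 from -0.35 to -0.043.

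Over all genes, 639 had an unadjusted p under 0.05, and 1038 of 26609 without a minimum. With single libraries left out, the count ran from 461 to 1417, the latter without control 1, that of genes called at the adjusted p from 0 to 2, and that of the 10 genes with an unadjusted p under 0.05 from 0 to 1, which was IL6ST without control 1. The cause was not tested. The labels give both groups the replicate numbers 1 to 3 and do not say whether same-numbered libraries were handled together. The correlations of their deviations from the group means were 0.0634, 0.151 and -0.0239. The value for replicate 2 was the highest of all pairs, whereas control 1 correlated best with I3 3 (0.101). With so few libraries these values cannot settle whether the numbers mark pairs, and this was not tested further. The replicate block raised the 639 genes to 856, called 0 genes at the adjusted p, and left 0 of the 10 genes with an unadjusted p under 0.05. Depth limits mainly IL6R and CSF2RB.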

Other observations

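Of 16 markers of myeloid differentiation 11 passed the minimum of 0.5 FPKM. At an unadjusted p under 0.05 in limma, 2 of them were lower in I3 libraries, beside 2.85% of all tested genes, and 0 were higher, beside 2.08%. With voom on rebuilt reads the counts were 2 lower and 1 higher of 13 genes, beside 660 of 13606 tested genes in either direction. Both lower genes encode C/EBP factors. CEBPD had 36.1, 34.9 and 33.8 FPKM in control 1, 2 and 3 and 28.6, 17.8 and 11.8 FPKM in I3 1, 2 and 3 (log2 fold change -0.92, limma unadjusted p = 0.0107, adjusted p = 0.812). CEBPB had a log2 fold change of -0.69 (limma unadjusted p = 0.0134, adjusted p = 0.845). The GC content of the transcripts is 70% for CEBPD and 66.2% for CEBPB. After GC correction the log2 fold changes were -0.79 and -0.60 (limma unadjusted p = 0.0162 and 0.0167, adjusted p = 0.729 for both). The higher gene with voom was ADGRE2, which encodes the myeloid surface receptor EMR2 and was under the minimum. It had 0.309, 0.241 and 0.199 FPKM in control 1, 2 and 3 and 0.319, 0.521 and 0.370 FPKM in I3 1, 2 and 3, without overlap. Its log2 fold change was 0.68 with voom (unadjusted p = 0.0254, adjusted p = 0.998, voom and limma) and 0.27 without a minimum (limma, unadjusted p = 0.0943, adjusted p = 0.898). The granule protein genes PRTN3, ELANE and AZU1 were the most abundant of the list. ELANE had 5319, 3516 and 4832 FPKM in control 1, 2 and 3 and 5065, 3680 and 5053 FPKM in I3 1, 2 and 3, with the lowest library of each group at replicate 2, where CSF3R was also lowest. CEBPA was lowest in I3 3, at 1.48 FPKM beside 3.67 to 4.61 FPKM in the other libraries, and so was SPI1, at 63.2 FPKM beside 86.7 to 95.6 FPKM. The GC content of their transcripts is 65.9% for CEBPA and 65.6% for SPI1.

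The genes whose levels followed those of IL6ST most closely over the 6 libraries were FAM199X, GSK3B and PTBP3, with Pearson's r of 0.9975, 0.9971 and 0.9969 on the log2(FPKM + 0.5) scale. These are the highest of 12960 tested genes over only 6 libraries and are given as a description, since the libraries share depth and GC effects. The GC content of their transcripts was 37%, 45.4% and 38.4%, beside 40.2% for IL6ST.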
